A study of Mus musculus with 12 samples.

Results

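The genes described here encode 4 enzymes of ketone body metabolism, Bdh1, Bdh2, Oxct1 and Acat1, and were chosen by name from the 23183 genes listed for each kidney library, in which all 4 were present. Kidney cortex was collected on day 7 after unilateral ureteral obstruction (UUO), the surgical closure of 1 ureter. The obstructed kidney was compared with the contralateral (CL) kidney. Wild-type mice (WT, Acot12+/+) and mice with a global loss of Acot12 (Acot12-/-), made through the germline with an RNA-guided endonuclease, each contributed 3 CL and 3 UUO libraries, so that 12 libraries formed 4 groups. Acot12 encodes an acyl-CoA thioesterase that splits acetyl-CoA into acetate and free CoA. The mice were C57BL/6N males, 6 to 7 weeks old at surgery. No group was sham-operated, so the CL kidney was itself the remaining working kidney of an obstructed animal, and the loss of Acot12 was not limited to the kidney.

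Ketone bodies, acetoacetate and β-hydroxybutyrate, are made from the acetyl-CoA of fatty acid oxidation, mostly in liver mitochondria, and travel in the blood to tissues that burn them. A thiolase joins acetyl-CoA units to acetoacetyl-CoA, further mitochondrial enzymes turn it into acetoacetate, and BDH1 reduces acetoacetate to β-hydroxybutyrate. In tissues that use ketone bodies, BDH1 runs the other way, OXCT1 moves CoA from succinyl-CoA onto acetoacetate, and the mitochondrial thiolase ACAT1 splits the product into acetyl-CoA for the citric acid cycle. The kidney cortex is known both to burn ketone bodies and to reabsorb them from the filtrate, and its proximal tubules are rich in mitochondria. BDH2 is a cytosolic dehydrogenase that also accepts β-hydroxybutyrate and has been linked to iron handling.

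In GRCm38, Oxct1 (ENSMUSG00000022186.14) spans 4026383 to 4155344 on the plus strand of chromosome 15 with 17 exons, and Acat1 (ENSMUSG00000032047.5) spans 53580522 to 53610382 on the minus strand of chromosome 9 with 12 exons. Bdh1 (ENSMUSG00000046598.15) lies on chromosome 16 at 31422280 to 31458901 and Bdh2 (ENSMUSG00000028167.15) on chromosome 3 at 135281221 to 135304426, both on the plus strand. RefSeq promoter windows for GRCm38.p6, 250 bases before to 50 bases after a start of transcription, were matched for 3 of the 4 genes. The start regions of Oxct1, Bdh2 and the downstream start of Bdh1 are shown, as these genes fell together after UUO by different amounts. Acat1 also fell, but no window was matched for it. Expression values are per gene, so they do not show which Bdh1 start was used. Capitals mark matches to the short motifs searched on both strands, which were the nuclear receptor element AGGTCA, the promoter box known as CCAAT and the GC-rich box GGGCGG.
Oxct1 at chr15:4026178-4026477, plus strand: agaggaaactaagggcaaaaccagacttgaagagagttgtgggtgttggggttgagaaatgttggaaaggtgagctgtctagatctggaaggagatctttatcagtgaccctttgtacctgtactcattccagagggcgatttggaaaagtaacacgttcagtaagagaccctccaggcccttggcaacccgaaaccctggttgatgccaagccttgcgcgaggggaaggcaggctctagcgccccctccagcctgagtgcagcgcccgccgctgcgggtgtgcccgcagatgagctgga
Bdh2 at chr3:135280971-135281270, plus strand: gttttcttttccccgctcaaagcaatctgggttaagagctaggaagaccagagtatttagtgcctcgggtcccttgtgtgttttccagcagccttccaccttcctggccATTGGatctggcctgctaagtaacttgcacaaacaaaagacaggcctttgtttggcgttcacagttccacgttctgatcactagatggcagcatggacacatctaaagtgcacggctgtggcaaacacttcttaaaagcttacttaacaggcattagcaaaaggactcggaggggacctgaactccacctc
Bdh1 at chr16:31428503-31428802, plus strand: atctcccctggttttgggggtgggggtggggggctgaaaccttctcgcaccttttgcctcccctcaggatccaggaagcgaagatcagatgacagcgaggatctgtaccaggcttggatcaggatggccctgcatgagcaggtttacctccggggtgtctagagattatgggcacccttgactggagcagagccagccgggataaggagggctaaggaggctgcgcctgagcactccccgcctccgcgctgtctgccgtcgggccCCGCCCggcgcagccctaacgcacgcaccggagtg
The Bdh2 window held CCAAT on the opposite strand, 141 bases before the start, and the Bdh1 window held GGGCGG on the opposite strand, just inside the transcript. Neither of these motifs, nor AGGTCA, was found in the Oxct1 window. Such matches are common, as CCAAT was present in 37.4%, GGGCGG in 35.7% and AGGTCA in 16.3% of 32851 promoter windows. The direct repeat AGGTCANAGGTCA, the form to which PPARα binds, was present in 13 of these windows (0.0396%) and in no window of Oxct1, Bdh1 or Bdh2. GC content was 55.3% in the Oxct1, 48.7% in the Bdh2 and 63.7% in this Bdh1 window. A second Bdh1 window further upstream, which covers the first base of the gene span given above, held no match.

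Expression is given as FPKM, a fragment count corrected for transcript length and library depth. The low values imply 12340000 to 16220000 fragments per CL library and 18420000 to 22860000 per UUO library, so that Oxct1 rested on an estimated 3605 to 41088 fragments. Comparisons used limma on log2(FPKM + 1) over 13243 genes, and a gene is called when its adjusted p is under 0.05. In CL kidneys Acot12 itself had 52.7 to 78.1 FPKM in WT and 6.8 to 9.14 in knockout mice, and after UUO the 2 genotypes had 9.98 to 21.2 and 1.80 to 3.86, so each knockout library lay below each WT library of the same side. Proximal tubule markers such as Lrp2 were present in every group, with a summed level of 13 markers of 5106 to 6360.2 FPKM in WT CL kidneys. The first principal component, with 74.2% of the variance, parted UUO from CL libraries. Acot12-/- CL replicate 2 lay apart from its group on the second (-52.3 against 22.2 and 33.0), so the genotype differences in CL kidneys, and calls of named genes in Acot12-/- mice that change without it, are also given without that library.

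All 4 genes fell after UUO in both genotypes. Among contralateral kidneys Oxct1 was the most abundant member, and its mean fell from 706 ± 37.3 to 96.4 ± 26.1 FPKM in WT and from 818 ± 64.5 to 117 ± 51.6 FPKM in Acot12-/- mice (SD, n = 3). Acat1 fell by a similar proportion, Bdh1 by less and Bdh2 by the least. Genotype changed none of the 4 detectably on either side.

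Oxct1 encodes the CoA transferase that commits acetoacetate to oxidation. Its FPKM were 735, 664 and 719 in the CL and 81.0, 81.7 and 127 in the UUO kidneys of WT mice. Knockout mice had 832, 874 and 748 on the CL side and 133, 59.5 and 159 on the obstructed side. The lowest CL library was therefore far above the highest UUO library in each genotype, and Acot12-/- UUO replicate 2 was the lowest of all 12. On the log2(FPKM + 1) scale Oxct1 fell by 2.89 in WT mice (SE 0.31, limma adjusted p = 2.97e-05), and the knockout fall was 2.90 (SE 0.31, adjusted p = 1.48e-05). A larger fall was found in 72 of the 13243 genes in WT and in 73 in Acot12-/- kidneys. By mean level, 192 of 23183 genes exceeded Oxct1 in WT CL kidneys and 786 did so in WT UUO kidneys.

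Acat1, the mitochondrial acetoacetyl-CoA thiolase that also acts in isoleucine breakdown, had 453, 300.1 and 396 FPKM in the CL and 39.5, 42.1 and 78.7 in the UUO kidneys of WT mice. In knockout mice the CL side had 395, 304 and 378 and the obstructed side 65.9, 32 and 72.8. Groups did not overlap between CL and UUO. The difference was -2.87 in WT mice (SE 0.33, limma adjusted p = 4.16e-05) and -2.71 in the knockout (SE 0.33, adjusted p = 3.3e-05), and 74 and 112 genes, respectively, fell further.

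Bdh1, the inner mitochondrial membrane dehydrogenase that interconverts β-hydroxybutyrate and acetoacetate, was the least abundant member, with 84.5, 55.7 and 73.6 FPKM in the CL and 10.4, 10.8 and 23.1 in the UUO kidneys of WT mice. The knockout values were 106, 51.3 and 94.1 on the CL side and 19.1, 8.69 and 22.6 on the obstructed side. It fell in every UUO library below every CL library, by 2.27 in WT mice (SE 0.39, limma adjusted p = 0.000556) and by 2.29 in the knockout (SE 0.39, adjusted p = 0.000369) on the log2(FPKM + 1) scale. Replicates spread more for Bdh1 than for Bdh2. In Acot12-/- UUO kidneys the highest Bdh1 value was 2.6 times the lowest, and in WT UUO kidneys 2.21 times, against 1.96 and 1.07 times for Bdh2.

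Bdh2, the cytosolic member, had 321, 291 and 310.1 FPKM in the CL and 93.1, 98.4 and 100 in the UUO kidneys of WT mice, and 324, 292 and 361 against 137, 78.0 and 153 in the knockout mice. The WT UUO libraries lay close together, while Acot12-/- UUO replicate 2 lay below the other two. CL and UUO groups did not overlap. The log2 difference was -1.65 in WT mice (SE 0.22, limma adjusted p = 0.000106) and -1.46 in the knockout (SE 0.22, adjusted p = 0.000161), with 550 and 792 genes falling further.

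**Figure D1:**
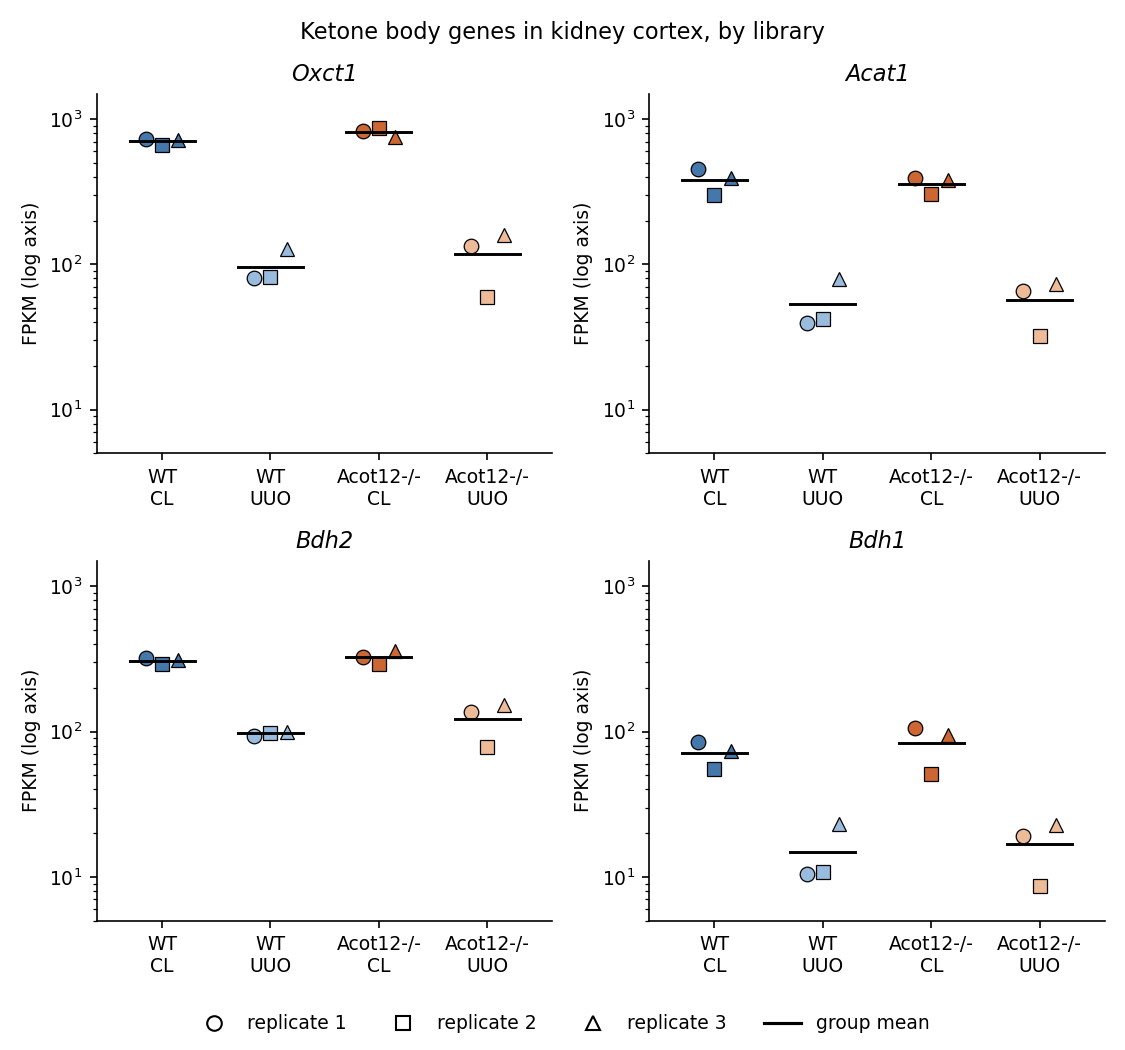
FPKM of Oxct1, Acat1, Bdh2 and Bdh1 (vertical log axis) in each of the 12 libraries, by genotype and kidney, with a symbol per replicate number and a line at the group mean. In each panel the UUO libraries lie below the CL libraries of both genotypes, and in Acot12-/- UUO kidneys replicate 2 is the lowest for all 4 genes.

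Thus 4 of 4 genes were called lower in WT, where 23.9% of the genes tested were called lower, and 4 of 4 in Acot12-/- kidneys, where 27.2% were. CL and UUO values did not overlap for any of the 4, a pattern shared by 35.8% of genes in WT and 27.6% in Acot12-/- kidneys in the same direction. Over both genotypes, with genotype as an additive term, the differences were -2.28 for Bdh1, -1.55 for Bdh2, -2.90 for Oxct1 and -2.79 for Acat1 (limma, adjusted p = 6.21e-06, 1.59e-06, 1.86e-07 and 3.38e-07), against a called-lower share of 32.1%. Scaling each library to the same total FPKM raised the median of all genes by 0.62 in WT and 0.46 in Acot12-/- kidneys and cut the share of lower calls among all calls from 50.3% to 12.0% in WT and from 50.5% to 19.7% in Acot12-/- kidneys. The 4 genes were still called lower under that scaling, with Oxct1 at -2.16 and -2.36 and Bdh2 at -0.92 and -0.91 in WT and Acot12-/- kidneys.

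Kidneys of the same mouse, as far as the replicate numbers pair them, showed the same spread. In UUO kidneys Oxct1 stood at 11%, 12.3% and 17.6% of the CL level in the 3 WT pairs and at 16%, 6.81% and 21.3% in the 3 Acot12-/- pairs. Acat1 stood at 8.71%, 14.0% and 19.9% in WT and at 16.7%, 10.5% and 19.3% in Acot12-/- pairs. Bdh2 kept the most, with 29.0%, 33.9% and 32.3% in WT and 42.2%, 26.7% and 42.3% in Acot12-/- pairs, whereas Bdh1 kept 12.3%, 19.3% and 31.4% in WT and 18.0%, 16.9% and 24.0% in Acot12-/- pairs. Replicate 3 kept the largest share of Oxct1, Acat1 and Bdh1 in both genotypes.

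Levels of cell type markers changed in the same libraries. Of the 13 proximal tubule markers 12 were called lower in WT and 13 in Acot12-/- kidneys, and their summed level was 987 to 1889 FPKM in WT UUO against 5106 to 6360.2 in WT CL, and 771 to 2309 in Acot12-/- UUO against 6209 to 9401 in Acot12-/- CL kidneys. Summed macrophage markers (8 genes) rose from 158 to 182 FPKM in WT CL to 656 to 789.6 in WT UUO, and from 54.9 to 120.5 to 711 to 943 in Acot12-/- kidneys. All 7 injured tubule markers were called higher in each genotype, and of 10 markers of other tubule segments 10 were called lower in WT and 9 in Acot12-/- kidneys. Over all genes 23.6% were called higher and 23.9% lower in WT, and 26.6% higher and 27.2% lower in Acot12-/- kidneys. None of the markers in these lists was at 0 in every library of a group. Acot12-/- UUO replicate 2, the library with the lowest summed level of the 4 ketone body genes (178 FPKM against 355 and 407), also had the lowest summed proximal tubule markers (771 against 2309 and 2016). In such bulk tissue fewer tubule cells and less RNA per cell cannot be told apart, and the part of this shift in the falls given above was not tested.

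Whether members fell by different amounts was asked of the ratio of 2 genes within a library, which does not depend on how that library was scaled. The ratio of Bdh2 to Oxct1 was 0.431 to 0.438 in the CL and 0.79 to 1.2 in the UUO kidneys of WT mice, and 0.334 to 0.482 against 0.959 to 1.31 in the knockout, so that each UUO library exceeded each CL library. The change was 1.35 on the log2 scale (two-sided exact permutation of the kidney labels within genotype, p = 0.005, adjusted p = 0.0075 over 6 ratios), in the same direction in 6 of 6 pairs. The ratio of Bdh2 to Acat1 rose by 1.25 and likewise without overlap (exact permutation p = 0.005, adjusted p = 0.0075). Of 400 arrangements 0.005 is the smallest p this test can give.

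Bdh1 lay between. Its ratio to Oxct1 rose by 0.55, and to Acat1 by 0.46 (exact permutation p = 0.005, adjusted p = 0.0075 for each). Its ratio to Bdh2 fell by 0.80 (exact permutation p = 0.015, adjusted p = 0.018). Each of these changes had the same direction in 6 of 6 pairs. Over both genotypes UUO and CL libraries did not overlap for Bdh1 to Oxct1 but did for Bdh1 to Acat1 and to Bdh2. Bdh1 to Bdh2 also overlapped within WT, at 0.192 to 0.263 in CL and 0.109 to 0.231 in UUO kidneys. Oxct1 and Acat1 could not be told apart by this measure, with a change of -0.10 (exact permutation p = 0.465) and the same direction in 4 of 6 pairs. Their ratio ranged from 1.62 to 2.21 in WT CL and from 1.61 to 2.05 in WT UUO kidneys, and from 1.98 to 2.88 and 1.86 to 2.19 in the Acot12-/- groups. The 6 ratios share genes and libraries and are not independent of each other.

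**Figure D2:**
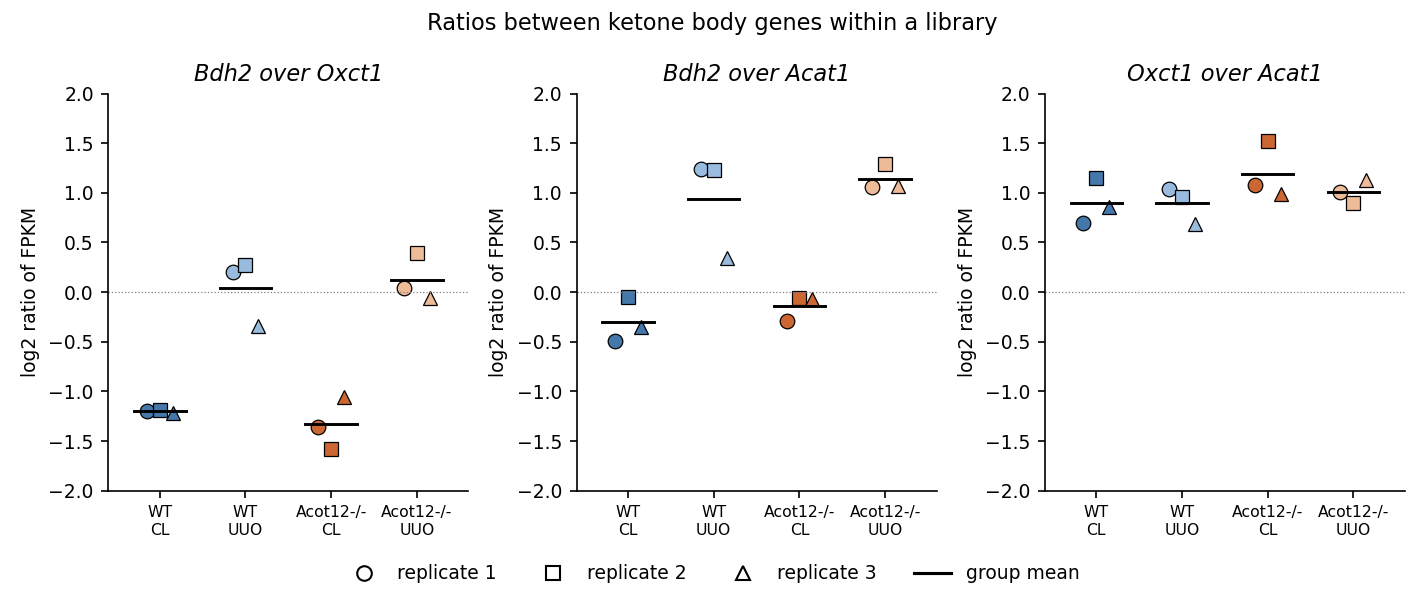
Log2 ratio of FPKM (vertical axis) of Bdh2 to Oxct1, Bdh2 to Acat1 and Oxct1 to Acat1 in each library, by group, with a symbol per replicate number and a line at the group mean. The UUO libraries lie above the CL libraries in the ratios of Bdh2, and the groups overlap for Oxct1 over Acat1.

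These unequal falls changed the order of the levels. In CL kidneys of both genotypes Oxct1 ranked above Acat1 without overlap. Acat1 and Bdh2 followed, with overlapping ranges, though Acat1 was above Bdh2 in 3 of 3 libraries of each CL group. Bdh1 was last. In UUO kidneys Bdh2 (97.2 ± 3.63 FPKM in WT, 122 ± 39.3 in Acot12-/-, SD, n = 3) and Oxct1 (96.4 ± 26.1 and 117 ± 51.6) did not differ beyond their spread, Acat1 came next, overlapping Oxct1 across the Acot12-/- UUO libraries but below it in each of the 3, and Bdh1 was again last. FPKM are per kilobase, which allows levels of different genes to be set side by side. The transcript lengths used are not given, however, so the order of genes with close levels is uncertain.

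The second comparison asked whether loss of Acot12 changed these genes. In UUO kidneys the Acot12-/- minus WT difference on the log2(FPKM + 1) scale was 0.17 for Bdh1 (95% confidence interval -0.67 to 1.01), 0.27 for Bdh2 (-0.20 to 0.75), 0.20 for Oxct1 (-0.48 to 0.87) and 0.08 for Acat1 (-0.63 to 0.79), with a limma adjusted p of 1 for each. Groups overlapped for all 4, and 0 of 4 were called, against 0.0151% of all genes, which is 2 genes. No member had an unadjusted p under 0.05 here, the lowest being 0.234 for Bdh2, while 312 genes did. Leaving out Acot12-/- UUO replicate 2 gave the highest values, up to 0.62 for Oxct1 and 0.57 for Bdh2, and still called none of them.

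In CL kidneys the differences were 0.19 for Bdh1 (95% confidence interval -0.66 to 1.03), 0.08 for Bdh2 (-0.40 to 0.56), 0.21 for Oxct1 (-0.46 to 0.88) and -0.08 for Acat1 (-0.79 to 0.63), with limma adjusted p of 0.876, 0.91, 0.81 and 0.938. None of the 4 was called, against 4.48% of all genes, of which those called higher made up 1.12% of the genes tested. Oxct1 was the member whose groups did not overlap, at 748 to 874 FPKM in Acot12-/- and 664 to 735 in WT CL kidneys, a pattern that 8.60% of genes showed in the same direction. The lowest unadjusted p among the 4 was 0.506, for Oxct1. Without Acot12-/- CL replicate 2 the differences were 0.50 for Bdh1, 0.15 for Bdh2, 0.16 for Oxct1 and 0.03 for Acat1. None of them was called in that fit either, where 22.1% of all genes were. The interaction, the difference between genotypes in the change with UUO, was -0.02 for Bdh1 (-1.21 to 1.17), 0.19 for Bdh2 (-0.48 to 0.87), -0.02 for Oxct1 (-0.96 to 0.93) and 0.16 for Acat1 (-0.84 to 1.16), and called 0 of 4 members and 0.106% of all genes. With kidneys of the same genotype and replicate number treated as a replicate block, the interaction called 203 instead of 14 genes, again with 0 of the 4. These intervals leave room for changes of either sign and do not show that the genotypes were alike.

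Levels of cell type markers also differed between the genotypes in CL kidneys. Summed proximal tubule markers were 6209 to 9401 FPKM in Acot12-/- CL against 5106 to 6360.2 in WT CL kidneys, with 0 of 13 genes called. Summed endothelial markers (7 genes) were 46 to 70.2 against 132 to 219.8 FPKM with 5 called lower (3.36% of all genes were called lower here), summed macrophage markers 54.9 to 120.5 against 158 to 182 with 4 of 8 called lower, and summed fibroblast markers (8 genes) 50 to 111 against 143 to 186 with 3 called lower. Without Acot12-/- CL replicate 2, 2 of 13 proximal tubule markers were called higher, and 7 endothelial, 6 macrophage and 7 fibroblast markers were called lower. In that fit 1536 of all 13212 genes tested were called higher and 1381 lower. Their part in the genotype differences given above was not tested.

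Of 7 other enzymes of ketone body and acetoacetyl-CoA metabolism reported here, 4 passed the filter on low values. In each genotype 3 of the 4 were called lower after UUO, against 23.9% of all genes in WT and 27.2% in Acot12-/- kidneys. Their median was -1.35 in WT and -1.65 in Acot12-/- kidneys for the 4 tested, against medians over all genes of 0.01 and -0.01. None of the 4 was called between genotypes on either side with all libraries. Acat2 had 63 to 65.7 FPKM in Acot12-/- CL against 41.6 to 52.5 in WT CL kidneys, without overlap, as for 8.60% of genes in the same direction. Its difference was 0.49 (unadjusted p = 0.0304, limma adjusted p = 0.224). Of 21 alternatives 1 called it, which left out both kidneys numbered 2 of Acot12-/- (0.49, limma adjusted p = 0.0208) and was chosen after seeing the data. It was called in 0 of 12 fits with a library left out, among them the fit without Acot12-/- CL replicate 2. Aacs, the cytosolic synthetase that spends acetoacetate on lipid synthesis, changed by -2.27 in WT and -2.28 in Acot12-/- kidneys (limma adjusted p = 0.00128 and 0.000923). Hmgcs1, the cytosolic synthase of the cholesterol pathway, fell by 1.54 and 1.77 (adjusted p = 0.000722 and 0.000189). The cytosolic thiolase Acat2 fell by 1.16 and 1.52 (adjusted p = 0.000559 and 5.91e-05), and the first of these was no longer called when totals were made equal (-0.45, adjusted p = 0.0728). Acat3 stood at 0.27 and 0.38 and was not called in either genotype (limma adjusted p = 0.255 and 0.103), but it was called higher over both genotypes (0.33, adjusted p = 0.0404), as were 31.3% of all genes. It was also called with equal totals (0.98 in WT, 0.92 in Acot12-/-), in WT with the groups compared alone (0.27, adjusted p = 0.0171), and in Acot12-/- kidneys without CL replicate 2 (0.59, adjusted p = 0.00295) or without both kidneys numbered 2 (0.67, adjusted p = 0.00252). Acat2 and Acat3 are close relatives in sequence, so reads may have been split between them. Hmgcll1 reached 1.47 FPKM in a single library and was below 1 in the others, and the Oxct1 relatives Oxct2a and Oxct2b stayed at or under 0.271 FPKM, so none of these was tested.

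**Figure D3:**
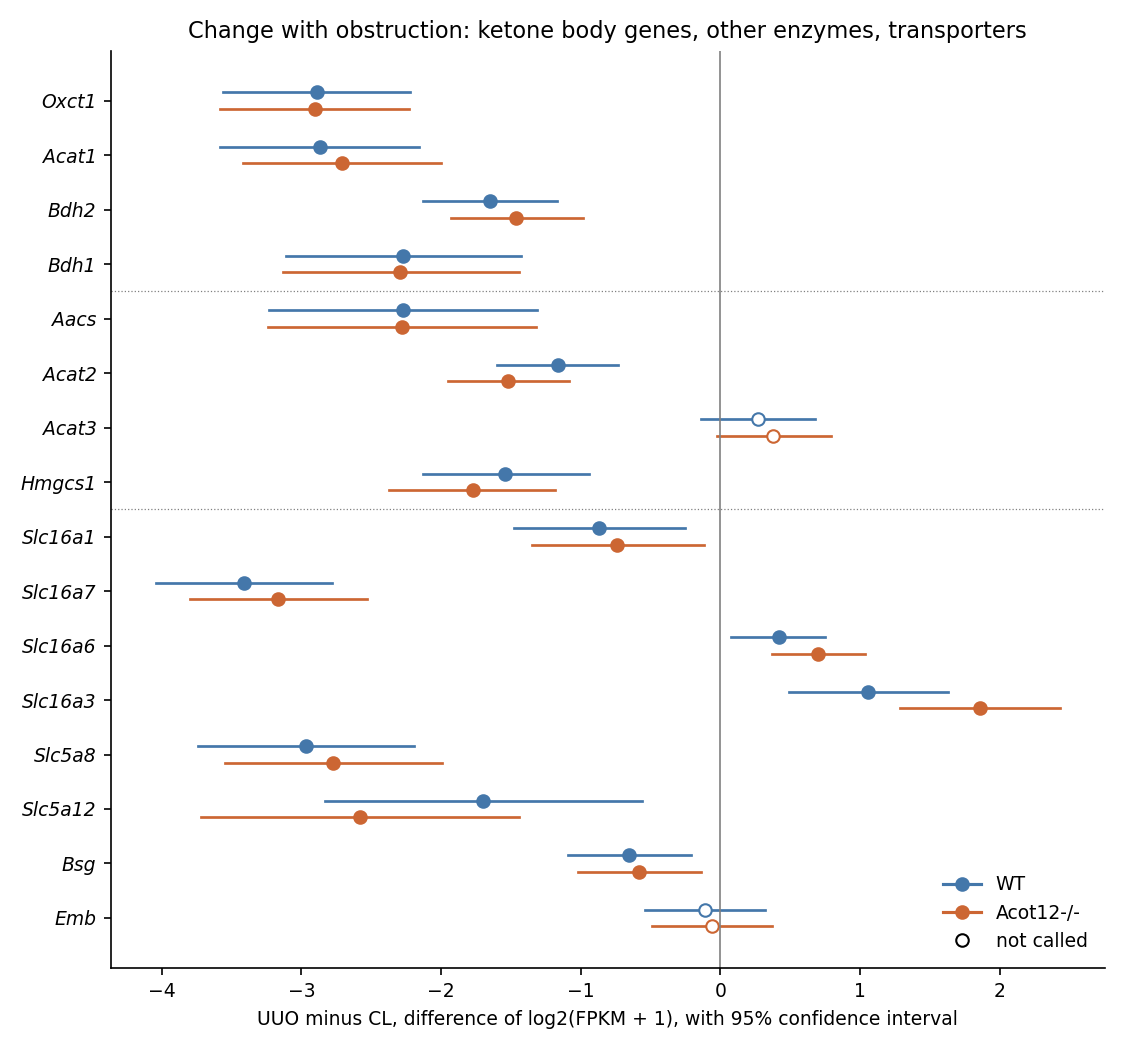
UUO minus CL differences of log2(FPKM + 1) with 95% confidence intervals (horizontal axis) in WT and Acot12-/- kidneys for the 4 ketone body genes (top), other enzymes (middle) and transporters (bottom), with open circles for genes not called. Oxct1 and Acat1 lie near -2.9, Bdh2 near -1.6, Slc16a7 is the lowest at -3.41 in WT, and Acat3 and Emb are the genes not called in either genotype with all libraries.

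Of 8 monocarboxylate transporters and partner proteins 5 were called lower and 2 higher in each genotype. Called-lower genes made up 23.9% of all genes in WT and 27.2% in Acot12-/- kidneys. Called-higher genes made up 23.6% and 26.6%, so the 2 higher calls were near the share of all genes. Slc16a7 (MCT2) had 47.9 to 74.9 FPKM in the CL and 3.75 to 5.17 in the UUO kidneys of WT mice, and 36.5 to 86.1 against 4 to 5.77 in the knockout, a fall of 3.41 and 3.17 (SE 0.29, limma adjusted p = 8.02e-06 and 5.55e-06). Slc5a8, the sodium-coupled transporter of the brush border, fell by 2.97 and 2.77 (adjusted p = 5.83e-05 and 5.31e-05), and its relative Slc5a12 by 1.70 and 2.58 (adjusted p = 0.0185 and 0.00129). Slc16a1 (MCT1) fell by 0.87 and 0.74 (adjusted p = 0.0242 and 0.0435), and its partner Bsg by 0.65 and 0.58 (adjusted p = 0.0203 and 0.0295), the latter pair reaching 0.09 and -0.03 when totals were made equal. Equal totals also ended the calls of Slc16a1 (-0.18 and -0.23) and of Slc5a12 in WT (adjusted p = 0.0826 by limma). With 1 of the 12 libraries left out, Slc16a1 stayed called in 8 and 4 fits (-1.13 to -0.69 and -1.04 to -0.48), Bsg in 7 and 8 (-0.68 to -0.62 and -0.80 to -0.42) and Slc5a12 in 10 and 12. In Acot12-/- kidneys Slc16a1 was -0.69 and not called without CL replicate 2 (limma adjusted p = 0.0832).

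Slc16a3 (MCT4), known as a lactate exporter of glycolytic cells, rose from 0.465 to 1.2 FPKM on the CL side to 2.02 to 3.48 on the obstructed side of WT mice, and from 0.062 to 0.546 to 2.75 to 5.9 in the knockout. The differences were 1.06 and 1.86 (SE 0.26, limma adjusted p = 0.00562 and 9.85e-05), and at such low FPKM this scale understates the change. Slc16a6, which exports ketone bodies from liver cells, rose by 0.42 and 0.70 (adjusted p = 0.041 and 0.00218). In WT that call was kept in 5 of 12 fits with a library left out (0.28 to 0.54). Emb stayed at 12.0 to 20.9 FPKM in all 12 libraries and was not called (-0.11 and -0.06), with values of 0.58 and 0.45 when totals were made equal. No transporter was called between genotypes.

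The reaction of OXCT1 draws on succinyl-CoA, and 7 enzymes that make or use it were counted. Of these 5 were called lower in WT, against 23.9% of all genes, and 7 in Acot12-/- kidneys, against 27.2%. The citrate cycle ligase subunits Suclg1 (-2.29 and -2.40), Sucla2 (-1.91 and -1.82) and Suclg2 (-1.05 and -1.67) fell in both genotypes, as did the methylmalonyl-CoA mutase Mut (-2.08 and -2.44, limma adjusted p = 5.21e-05 and 1e-05) and Sugct (-1.57 and -1.75). Ogdh (-0.54, adjusted p = 0.0844) and Alas1 (-0.48, adjusted p = 0.143) were not called in WT but were called in Acot12-/- kidneys (-1.34 and -1.21, adjusted p = 0.000597 and 0.00176), and in WT both turned positive when totals were made equal, while Suclg2 was then no longer called in WT (-0.32, adjusted p = 0.141). In WT, however, Ogdh was called lower with the replicate block (limma adjusted p = 0.0378), with the groups compared alone (adjusted p = 0.00756) and without Acot12-/- CL replicate 2 (adjusted p = 0.0299), which made 6 of 7 with the block, and Alas1 was called without WT CL replicate 3 (-0.74, adjusted p = 0.0323). Between genotypes in CL kidneys 0 of the 7 were called, and 3 were called higher without Acot12-/- CL replicate 2, namely Alas1, Ogdh and Suclg2. Suclg2 was at 0.66 (limma adjusted p = 0.036) without that library against 0.72 (adjusted p = 0.0546) with it. Without it 1536 of all 13212 genes tested were called higher. No interaction was called for any of the 7, so a difference between genotypes was not shown.

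Among 8 thiolases, Acat1 included, 6 were called lower in each genotype, with medians of -1.60 and -1.67. The share called lower over all genes was 23.9% in WT and 27.2% in Acot12-/- kidneys. Acat1 had the largest fall of the 8 in both genotypes, followed by Scp2 (-2.18 and -2.09), the peroxisomal thiolase and sterol carrier. Hadhb, the thiolase subunit of the mitochondrial trifunctional protein, fell by 1.48 and 1.55 (limma adjusted p = 4.2e-05 and 1.76e-05), while Acaa2 (-1.71 and -2.01) and the peroxisomal Acaa1b (-2.03 and -1.79) fell as well, the knockout call of Acaa1b being kept in 10 of 12 fits with a library left out (-2.23 to -1.11). The peroxisomal Acaa1a stood at -0.26 and -0.30 and was not called, and it turned to 0.46 and 0.24 when totals were made equal. In Acot12-/- kidneys it was called lower without CL replicate 2 (-0.80, limma adjusted p = 0.00252) and without both kidneys numbered 2 (-0.69, adjusted p = 0.00816). Between genotypes in CL kidneys 0 of 8 thiolases were called, and 2 were called higher without that CL library, Acaa1a and Acaa2. Acaa2 was at 1.05 (limma adjusted p = 0.0137) without it against 0.80 (adjusted p = 0.119) with it. In the fit without it 1536 of all 13212 genes tested were called higher.

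Of 9 regulators and receptors, 4 passed the filter and all 4 were called lower in each genotype, against 23.9% of all genes in WT and 27.2% in Acot12-/- kidneys. The mitochondrial deacetylase Sirt3, known to act on enzymes of ketone body metabolism, fell by 1.82 and 1.69 (limma adjusted p = 0.0015 and 0.00187). Ppara, the nuclear receptor that drives fatty acid oxidation genes in liver, fell by 0.80 and 1.59 (adjusted p = 0.00732 and 5.32e-05), the first of them to -0.15 and no longer called when totals were made equal. In CL kidneys Ppara had 19.1, 15.3 and 13.9 FPKM in Acot12-/- and 9.68, 11 and 10.7 in WT libraries. These did not overlap, as for 8.60% of genes in the same direction, but the difference of 0.57 did not pass (unadjusted p = 0.0172, limma adjusted p = 0.161). Nnt, another of the 4, likewise did not overlap, at 86.3 to 109 FPKM in Acot12-/- and 64.3 to 69.8 in WT CL kidneys, and was not called. Without Acot12-/- CL replicate 2, 0 of the 4 regulators were called between genotypes in CL kidneys, where 22.1% of all genes were. The β-hydroxybutyrate receptor gene Hcar2 was too low to test, with 0.312 to 0.798 FPKM in WT UUO and 2.47, 11.1 and 0.98 in Acot12-/- UUO kidneys, so its highest value belonged to replicate 2. Ffar3, Fgf21, Klb and Foxa2 stayed under 0.35 FPKM in all 12 libraries.

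For the iron genes set beside Bdh2, 10 of 11 passed the filter. Of these 4 were called lower and 1 higher in WT, and 5 lower and 1 higher in Acot12-/- kidneys, with medians of -0.57 and -0.72. Shares over all genes were 23.9% lower and 23.6% higher in WT, and 27.2% lower and 26.6% higher in Acot12-/- kidneys. With the replicate block 2 were called higher in WT, Hmox1 being added (0.74, limma adjusted p = 0.0303 against 0.0529 without the block). Hmox1 was called in WT in 7 of 21 alternatives, among them the fit without Acot12-/- CL replicate 2 (limma adjusted p = 0.0101). In that fit 6 iron genes were called lower and 2 higher in WT, and 7 lower and 1 higher in Acot12-/- kidneys. Of all 13212 genes tested there, 4096 were called lower and 4080 higher in WT, and 4484 lower and 3902 higher in Acot12-/- kidneys. The one called higher in both genotypes was Lcn2, the siderophore-binding lipocalin and a marker of injured tubules, from 3.57 to 41.8 FPKM in WT CL to 316 to 506 in WT UUO kidneys (4.77, limma adjusted p = 0.000423), and by 5.50 in Acot12-/- kidneys (adjusted p = 0.000107). The transferrin receptor Tfrc fell by 2.67 and 2.80 (adjusted p = 5.24e-05 and 2.15e-05). Bdh2 and Lcn2 therefore changed in opposite directions in both genotypes, where all 7 injured tubule markers, Lcn2 included, were called higher. A relation between Bdh2 and Lcn2 was not tested.

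Over the 12 libraries the members resembled each other, with Pearson correlations of log2(FPKM + 1) between 0.968 (Bdh1 and Bdh2) and 0.990 (Oxct1 and Acat1). As UUO and CL libraries differ in all of them, a high correlation is common, and 1419 to 1765 genes reached more than 0.9 with a given member. Closest to Oxct1 were Sdha (0.997), a subunit of succinate dehydrogenase, Sod2 (0.997), the mitochondrial superoxide dismutase, and Kmo (0.996). Closest to Acat1 were Pdk3 (0.997), Acadm (0.995) and Mccc1 (0.995). Acadm, the medium-chain acyl-CoA dehydrogenase, was also closest to Bdh1 (0.993), with Csad (0.993) and Bphl (0.991). Bdh2 was closest to Gstk1 (0.995), Gstz1 (0.994) and Ndufa9 (0.993), a complex I subunit. Mean FPKM of Sdha were 353 in WT CL and 126 in WT UUO kidneys, and of Acadm 834 and 132.

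BC037032 overlaps Oxct1 on the opposite strand and Gm15743 overlaps Bdh1 likewise. The libraries came from a directional kit, but whether counting used strand is not given in the sources used here, so reads of such partners may be included.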

How the data were processed

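Bulk RNA-seq of kidney cortex gave 12 libraries in 4 groups of 3, grouped by the sample titles. RNA was isolated, libraries were made with a directional kit, and trimming, mapping and normalization were done for the authors by a company. The aligner and annotation are not given in the sources used here, and mm10 is the genome build in the submitters' processing notes. The deposited values are FPKM per gene symbol, the unit being derived from the values, whose low entries are whole multiples of a step that scales with transcript length. Depth was estimated from these steps. The authors' FPKM were analysed as log2(FPKM + 1), because no count model suits them. Genes with at least 1 FPKM in at least 3 libraries were tested, leaving out 58 genes listed at 0 in a library while another of the same group had at least 10 FPKM, which gave 13243 genes. limma 3.58.1 in R 4.3.3 fitted 4 group means over 12 libraries with a variance trend, and Benjamini-Hochberg adjustment ran over all genes tested. Ratios of members were tested by exact two-sided permutation in Python 3.11.15. The fits were tested on simulated data.

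The members and gene lists were chosen with earlier results of these data known. Named were the 4 members, Acot12, genes of the lists that passed the filter, Hcar2 and other untested list genes by level, and the 3 genes most correlated with each member. Mut is the symbol in the files for the mutase listed as Mmut. Gene positions are from GENCODE vM21 (GRCm38), promoters from RefSeq (GRCm38.p6). No protein sequences were used here. Some other enzymes of the pathway are not reported here.

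Residuals of CL and UUO libraries with the same number correlated at 0.134, 0.364 and 0.335 in WT and at 0.322, 0.186 and 0.318 in Acot12-/- mice. Different numbers reached at most 0.139 in WT, above the lowest value of the same number, and -0.0748 in Acot12-/- mice. That the numbers pair the kidneys of a mouse is therefore an assumption drawn from the data. The labels name neither animals nor batches. The limma p-values set a difference between groups against the residual spread of these libraries. The main fit treated CL and UUO kidneys as independent, whereas the replicate block allowed for pairs. Alternatives were a pseudocount of 0.1, no filter, median-ratio size factors, equal total FPKM, no variance trend, the 58 genes kept, the replicate block, only the groups compared, and each library left out in turn. Leaving out both kidneys numbered 2 of Acot12-/- was added after seeing the data.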

Additional observations from a re-analysis of the deposited data

How the results depend on the processing

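The 4 ketone body genes were called lower with UUO in each genotype and over both, and in none of the genotype or interaction comparisons, under every alternative run. The calls of 5 ratios held under the 14 alternatives run for ratios (exact permutation, adjusted p at most 0.042). The Acot12-/- against WT count in UUO kidneys (2 genes) was 0 with a pseudocount of 0.1, no filter, median-ratio size factors, the genes listed at 0 kept, the replicate block or the groups compared alone, and 0 to 2 with a library left out. In CL kidneys the count (593) was 326 with equal totals, 5 with the groups compared alone, 187 to 2917 with a library left out (the latter without Acot12-/- CL replicate 2) and 3214 without both kidneys numbered 2 of Acot12-/-, an alternative chosen after seeing the data. Interaction calls (14) were 0 with no filter or equal totals, 8 without a variance trend, 203 with the replicate block, 0 to 898 with a library left out and 394 without both kidneys numbered 2. The replicate block changed no call on the ketone body genes, and among other genes named it added Ogdh and Hmox1 in WT. The cause was not tested.

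Among values that changed sign, Bsg in WT was the one called as reported, and Emb in WT the one called after the change. For Acot12-/- against WT in UUO kidneys, leaving out a library gave -0.09 to 0.56 for Bdh1, -0.08 to 0.62 for Oxct1 and -0.14 to 0.44 for Acat1, and equal totals gave -0.09 for Acat1. In CL kidneys the ranges were -0.01 to 0.50 for Bdh1 and -0.25 to 0.05 for Acat1, with 0.03 for Acat1 without both kidneys numbered 2. For the interaction they were -0.33 to 0.37 for Bdh1, -0.29 to 0.41 for Oxct1 and -0.06 to 0.52 for Acat1, with 0.06 for Bdh1 and 0.46 for Oxct1 without both kidneys numbered 2, and -0.03 for Acat1 with equal totals. With equal totals the WT difference between UUO and CL was 0.09 for Bsg, 0.46 for Acaa1a, 0.18 for Ogdh, 0.24 for Alas1 and 0.58 for Emb (limma adjusted p = 0.0323), and in Acot12-/- kidneys it was 0.24 for Acaa1a and 0.45 for Emb. Emb ranged from -0.24 to 0.14 there with a library left out and was 0.17 without both kidneys numbered 2.

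With 3 libraries a group, the intervals on genotype differences of the 4 genes reach beyond 0.5 on the log2 scale. FPKM carry no counting error of their own, so low values such as those of Slc16a3 in CL kidneys are limited by depth as well as by the spread between libraries.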
